A study of Mus musculus with 10 samples.

Results

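Cdkn1a, Btg2, Mdm2, Ccng1 and Trp53inp1 are 5 mouse genes that p53 switches on, and their chromatin was followed in peak lists from chromatin immunoprecipitation and sequencing (ChIP-seq). Each gene was taken as a fixed span on the mm9 build extended by 10 kb on each side, and every peak that touched such a window was kept. The windows were 24.3 to 42.0 kb long and held 120 of the 543779 peaks in the 10 lists. The cells were R1E mouse embryonic stem cells of C57BL/6X129Sv mix background, grown in serum with leukemia inhibitory factor. They were either given 0.5 uM Adriamycin for 8 h or left untreated, and the labels name no genetic change in either group. Adriamycin (doxorubicin) traps topoisomerase II on DNA and causes double-strand breaks. The 5 targets were histone H3 trimethylated at lysine 4 (H3K4me3), RNA polymerase II (Pol II), H3K79me2, H3K27me3 and hnRNP L, with 1 library of each per condition.

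DNA breaks stabilise p53, a transcription factor that binds a DNA element built from a tandem pair of 10-base repeats. Some of its targets stop the cell cycle and others act back on p53. Cdkn1a encodes p21, an inhibitor of cyclin-dependent kinases, and Btg2 encodes an antiproliferative protein that binds the CCR4-NOT deadenylase. Mdm2 encodes the ubiquitin ligase that degrades p53, Ccng1 encodes cyclin G1, which recruits a phosphatase to Mdm2, and Trp53inp1 encodes a nuclear protein that favours the phosphorylation of p53. H3K4me3 sits at active and poised promoters, H3K79me2 follows transcription into the 5′ part of gene bodies, and H3K27me3 is laid down by Polycomb repressors. hnRNP L is an RNA-binding splicing regulator.

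Pol II peaks covered more of Mdm2, Btg2, Trp53inp1 and Ccng1 in the Adriamycin list, and nearly the same length of Cdkn1a in both lists. H3K4me3 peaks covered more of Mdm2, Btg2, Trp53inp1 and Cdkn1a in the Adriamycin list, and Ccng1 had none in either list. The length under H3K79me2 differed by at most 0.806 kb at 4 of the 5 genes. Pol II peaks covered 56.2 kb of the 5 windows together in the Adriamycin list and 29.9 kb in the untreated list. H3K4me3 peaks covered 33.9 kb in the Adriamycin list and 10.5 kb in the untreated list. H3K79me2 covered 43.9 kb in the Adriamycin list and 46.5 kb in the untreated list. H3K27me3 lay only in the flanks of Mdm2 and Btg2, and hnRNP L had 1 weak peak, in the untreated list, beside Cdkn1a. With 1 library per target and condition, these differences have no replicate check and no test, and lists of unknown read depth are compared.

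**Figure D1:**
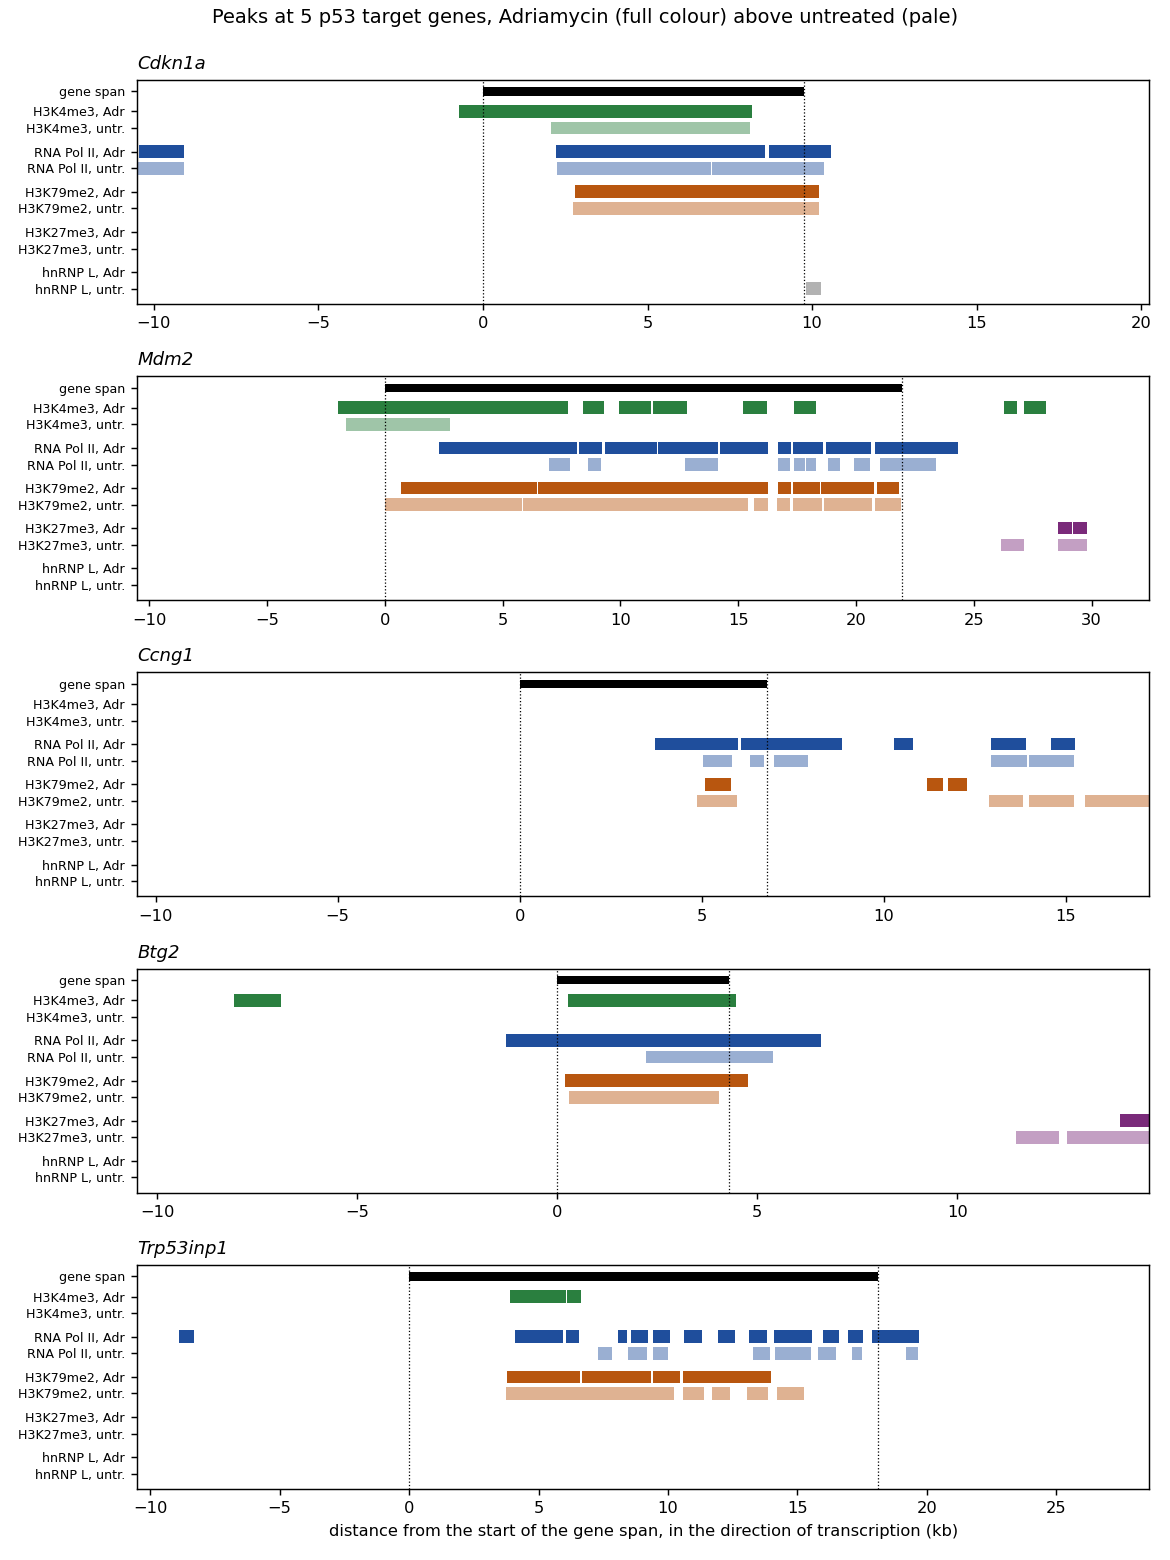
Peaks of the 5 targets at the 5 genes by distance from the start of the gene span (kb, in the direction of transcription), with Adriamycin bars above the paler untreated bars and the gene span in black. Pol II fills most of Mdm2 from 2.30 kb onwards in the Adriamycin list, and H3K4me3 at Cdkn1a reaches over the span's start only in that list.

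Cdkn1a (gene 12575, mm9 chr17:29227921-29237667, plus strand) had an H3K4me3 peak in both lists, and its 5′ edge differed. In the Adriamycin list the peak ran from 0.731 kb before the start of the span to 8.17 kb after it, at chr17:29227190-29236094 (score 1048.25). In the untreated list it ran from 2.07 to 8.11 kb after the start, at chr17:29229993-29236035 (score 1635). The 3′ edges thus lay close together, and the Adriamycin peak reached 2.803 kb further at the 5′ side, over the start of the span. RefSeq lists a pair of transcription starts for the gene on GRCm38.p6, the downstream one 2790 bp after the upstream one. If that distance also holds on mm9, the untreated peak covered the downstream start alone and the Adriamycin peak covered both.

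The windows of 250 bases before to 50 bases after both starts are shown because the 5′ edges of the H3K4me3 peaks in the Adriamycin and untreated lists lay about as far apart as these starts. Which start each mm9 peak covered was not read from an mm9 annotation. They are RefSeq sequences on GRCm38.p6, plus strand, at chr17:29090729-29091028 (upstream) and chr17:29093519-29093818 (downstream). Capitals mark a match to the p53 consensus without a spacer, with at most 1 mismatch in 20 bases, in the upstream window, and GC boxes (GGGCGG, searched on both strands) in the downstream window.
Cdkn1a upstream start: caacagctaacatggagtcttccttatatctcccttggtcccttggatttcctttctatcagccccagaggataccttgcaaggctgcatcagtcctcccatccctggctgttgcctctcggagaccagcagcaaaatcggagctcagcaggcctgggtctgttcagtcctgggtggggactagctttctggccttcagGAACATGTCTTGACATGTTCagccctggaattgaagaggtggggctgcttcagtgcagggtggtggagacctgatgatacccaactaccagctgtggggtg
Cdkn1a downstream start: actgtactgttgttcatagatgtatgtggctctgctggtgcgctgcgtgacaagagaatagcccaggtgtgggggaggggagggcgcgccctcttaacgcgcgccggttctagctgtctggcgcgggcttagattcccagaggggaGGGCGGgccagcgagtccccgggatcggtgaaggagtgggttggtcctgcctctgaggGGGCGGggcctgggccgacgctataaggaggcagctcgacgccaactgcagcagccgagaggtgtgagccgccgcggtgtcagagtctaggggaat
The match lay 51 to 32 bases before the upstream start, and 0.0883% of 32851 RefSeq promoter windows of this length held such a match (either strand, since the motif reads the same on both). GC boxes, found in 35.7% of all windows, numbered 2 in the downstream window and 0 in the upstream one. A match is a description of the letters, and p53 itself was not measured.

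Along the body of Cdkn1a, Pol II and H3K79me2 covered nearly the same bases in both lists. Pol II peaks covered 9.13 kb of the window in the Adriamycin list and 9.01 kb in the untreated list, and the sign of that small difference turned when peaks with a score under 100 were left out. The Pol II peak over the end of the gene ran from 8.68 to 10.6 kb after the start in the Adriamycin list (score 2591.13), and from 6.95 to 10.4 kb in the untreated list (score 3100, shared by 2238 peaks there). In the Adriamycin list 0.751% of Pol II peaks scored at least as high, and in the untreated list 2.98% did. The Pol II peak before it ran from 2.23 to 8.57 kb in the Adriamycin list (score 1407.9). In the untreated list it ran from 2.25 to 6.92 kb (score 749.45), so the lists split this stretch at different points. For it, 3.17% of the Adriamycin list and 14.2% of the untreated list scored at least as high. The H3K79me2 peak was 7.417 kb long in the Adriamycin list and 7.461 kb long in the untreated list. Its score placed it differently within each list. In the Adriamycin list 5.90% of H3K79me2 peaks scored at least as high (score 2595.96), and in the untreated list 43.9% did (score 195.75). Scores of separate lists are not on one scale, so these places are given side by side and no change is read from them.

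Just past the 3′ end of Cdkn1a, 9.81 to 10.3 kb after the start, the untreated list held an hnRNP L peak of 0.454 kb (score 52.74) that had no partner in the Adriamycin list. Over the whole untreated hnRNP L list 36.1% of peaks had no partner, and 94.3% scored at least as high as this one. A Pol II peak 9.09 to 10.5 kb before the start in the Adriamycin list (score 56.51) had an untreated partner over nearly the same bases (score 129.89). In the Adriamycin list 87.8% of Pol II peaks scored at least as high, and in the untreated list 47.4% did. These Pol II peaks lie on the side of Trp53cor1, the long noncoding RNA gene also called lincRNA-p21, which precedes Cdkn1a in RefSeq.

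Btg2 (gene 12227, mm9 chr1:135971700-135976000, minus strand) had H3K4me3 peaks in the Adriamycin list alone. Whether the peak caller left out untreated signal there was not tested. A peak of 4.20 kb ran from 0.264 to 4.46 kb after the start in the Adriamycin list (chr1:135971536-135975736, score 112.57) and covered 93.9% of the gene, against 0% in the untreated list. It was weak for its list, where 73.6% of peaks scored at least as high. A further Adriamycin peak lay 6.92 to 8.09 kb before the start (score 712.86), on the side of the noncoding gene Gm31974. For that peak 39.1% of the list scored at least as high. Neither peak had a partner in the untreated list.

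Pol II also covered all of Btg2 in the Adriamycin list. A single peak ran from 1.28 kb before to 6.59 kb after the start there (7.87 kb long, score 3100). That score is the most frequent one in both Pol II lists, shared by 248 peaks in the Adriamycin list and 2238 in the untreated list, so it ranks no peak among them. The untreated list held a peak of 3.16 kb from 2.22 to 5.38 kb after the start (score 484.41), and no Pol II peak was called in the 5′ part of the gene. Pol II thus covered 100% of the gene in the Adriamycin list and 48.4% in the untreated list. H3K79me2 covered 95.3% of the gene in the Adriamycin list (score 544.73) and 87.6% in the untreated list (score 469.07). Downstream of Btg2, H3K27me3 covered 0.226 kb of the window in the Adriamycin list and 2.60 kb in the untreated list. In each list the window's edge cut a peak, whose full length was 1.145 kb in the Adriamycin list and 2.537 kb in the untreated list. A further untreated peak of 1.056 kb lay wholly inside the window.

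The RefSeq window around the start of Btg2 (GRCm38.p6, chr1:134079106-134079405, minus strand) is shown because Pol II lay over the start of the mm9 span in the Adriamycin list only. Capitals mark GC boxes.
Btg2 start: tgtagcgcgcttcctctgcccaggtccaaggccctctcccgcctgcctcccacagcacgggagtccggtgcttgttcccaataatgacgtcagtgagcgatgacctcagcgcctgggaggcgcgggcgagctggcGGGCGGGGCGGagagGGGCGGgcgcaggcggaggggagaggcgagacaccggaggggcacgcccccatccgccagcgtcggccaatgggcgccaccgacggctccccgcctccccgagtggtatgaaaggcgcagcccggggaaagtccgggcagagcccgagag
It held 3 GC boxes and 72.0% G and C, and its closest stretch to the p53 consensus had 4 mismatches.

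Mdm2 (gene 17246, mm9 chr10:117125900-117147850, minus strand) had a long row of Pol II peaks in the Adriamycin list where the untreated list had short, separate ones. Pol II covered 84.2% of the gene in the Adriamycin list and 29.0% in the untreated list. When the span was cut into 3 equal parts, the 5′ part was covered to 68.1% in the Adriamycin list and 4.55% in the untreated list. The middle part was covered to 96.0% in the Adriamycin list and 34.0% in the untreated list, and the 3′ part to 88.6% in the Adriamycin list and 48.5% in the untreated list. The first Adriamycin peak began 2.30 kb after the start (4.18 kb long, score 594.62), and the first untreated peak 6.98 kb after it (score 61.69). Mdm2 has a p53-responsive promoter in its first intron in addition to the one at its start, and the place of that intron on mm9 was not used here.

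The strongest Pol II peak of Mdm2 lay over its 3′ end in both lists. In the Adriamycin list it ran from 20.8 to 24.3 kb after the start (score 3033), and 0.491% of the list scored at least as high. In the untreated list it ran from 21.0 to 23.4 kb (score 1775.23), and 6.47% scored at least as high. Over the body, Adriamycin Pol II peaks scored between 76.81 and 1118.74, where 64.6% and 4.80% of that list scored at least as high. Untreated ones scored between 61.02 and 202.42, where 84.8% and 34.5% of that list did. Scores of separate lists are not on one scale, so no change is read from them.

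H3K4me3 at Mdm2 spread from the promoter into the gene in the Adriamycin list. The promoter peak ran from 1.99 kb before to 7.79 kb after the start in that list (9.78 kb long, score 230.97), against 1.64 kb before to 2.78 kb after it in the untreated list (4.42 kb long, score 2781.57). A further 7 Adriamycin peaks of 0.546 to 1.417 kb followed in the gene and its downstream flank, with scores of 57.27 to 210.22, and none had a partner. H3K4me3 covered 61.1% of the gene in the Adriamycin list and 12.7% in the untreated list. Although longer, the Adriamycin promoter peak stood lower in its list, where 56.7% of peaks scored at least as high, while in the untreated list 25.6% did.

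H3K79me2 already covered Mdm2 in untreated cells. It covered 92.8% of the gene in the Adriamycin list and 95.1% in the untreated list. Within the gene, the longer Pol II and H3K4me3 stretches thus lay in a body that carried this mark in both conditions. The downstream 10 kb had no H3K79me2 peak in either list. There Pol II covered 23.8% in the Adriamycin list and 14.6% in the untreated list, and H3K4me3 14.9% and 0%. In the downstream flank, H3K27me3 covered 1.19 kb in the Adriamycin list and 2.20 kb in the untreated list. An untreated H3K27me3 peak 26.1 to 27.1 kb after the start (score 146.8) had no partner. An H3K4me3 peak at 26.3 to 26.8 kb (score 68.28), present in the Adriamycin list only, lay within the same bases.

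Ccng1 (gene 12450, mm9 chr11:40562000-40568800, minus strand) had Pol II over its 3′ part in both lists, and more of it in the Adriamycin list. Pol II covered 43.7% of the gene in the Adriamycin list and 17.6% in the untreated list. The strongest Adriamycin peak in the gene ran from 3.73 to 5.99 kb after the start (score 1382.67), where an untreated peak ran from 5.04 to 5.83 kb (score 783.95). A second Adriamycin peak spanned the 3′ end, from 6.10 to 8.86 kb (score 1145.89), and met a pair of separate untreated peaks at 6.32 to 6.72 kb (score 89.94) and 6.99 to 7.93 kb (score 394.85). No list held an H3K4me3 or H3K27me3 peak anywhere in the Ccng1 window, and none held a Pol II peak in the 5′ part of the gene or upstream of it.

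H3K79me2 was thin at Ccng1, with 10.6% of the gene covered in the Adriamycin list and 16.2% in the untreated list. Over the window it covered 1.67 kb in the Adriamycin list and 4.56 kb in the untreated list. Most of that difference lay 12.9 kb and more after the start, beyond the 3′ end and on the side of Nudcd2, the next gene in RefSeq. With the 10 kb flanks left out, the log2 ratio at Ccng1 was -0.29 in place of -1.06.

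The RefSeq window around the start of Ccng1 (GRCm38.p6, chr11:40755237-40755536, minus strand) is shown because it held the second p53 consensus match among the 5 promoter windows listed for 4 of these genes. Capitals mark the match, which lay 195 to 176 bases before the start and had 1 mismatch.
Ccng1 start: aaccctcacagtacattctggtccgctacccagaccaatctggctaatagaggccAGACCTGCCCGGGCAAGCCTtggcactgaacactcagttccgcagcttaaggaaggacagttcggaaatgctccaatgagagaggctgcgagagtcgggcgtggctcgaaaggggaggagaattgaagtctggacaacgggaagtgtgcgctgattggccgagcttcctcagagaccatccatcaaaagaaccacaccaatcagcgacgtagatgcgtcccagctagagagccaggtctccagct
No peak of the 10 lists covered this start. The window held 4 CCAAT boxes (CCAAT on either strand, found in 37.4% of all windows) and 0 GC boxes. In the Mdm2 window the closest stretch to the p53 consensus had 5 mismatches.

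Trp53inp1 (gene 60599, mm9 chr4:11083500-11101600, plus strand) had H3K4me3 peaks in the Adriamycin list alone, inside the gene and not over its start. The 2 peaks lay 3.90 to 6.06 kb (score 66.44) and 6.10 to 6.66 kb (score 113.11) after the start, both weak for their list, where 90.1% and 73.4% of peaks scored at least as high. Pol II inside the gene also began nearer to the start in that list. Adriamycin Pol II peaks in the gene began 4.09 kb after the start and covered 30.7% of the 5′ part of the gene, against 0% in the untreated list, whose first peak began at 7.31 kb.

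Further into Trp53inp1 the Pol II lists were closer. The middle part was covered to 50.3% in the Adriamycin list and 30.8% in the untreated list, and the 3′ part to 68.3% in the Adriamycin list and 52.7% in the untreated list. Pol II peaks in the window numbered 14 in the Adriamycin list and 8 in the untreated list, with the highest in the gene's 3′ part in both (score 508.38 in the Adriamycin list and 488.96 in the untreated list). H3K79me2 covered 9.92 kb in the Adriamycin list and 9.87 kb in the untreated list. As at Cdkn1a, the covered length hardly differed, but here the lists divided it into peaks of different lengths. The first Adriamycin H3K79me2 peak, 3.77 to 6.61 kb after the start, had a score of 1600.23, and 9.46% of the list scored at least as high. The untreated peak over these bases ran further, from 3.74 to 10.2 kb (score 118.33), and 60.3% of its list scored at least as high. These places thus rank stretches of unlike length. At Mdm2 the H3K79me2 peak nearest the start stood the other way. There 20.3% of the Adriamycin list scored at least as high (score 569.79), and 9.35% of the untreated list did (score 1880.43).

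**Figure D2:**
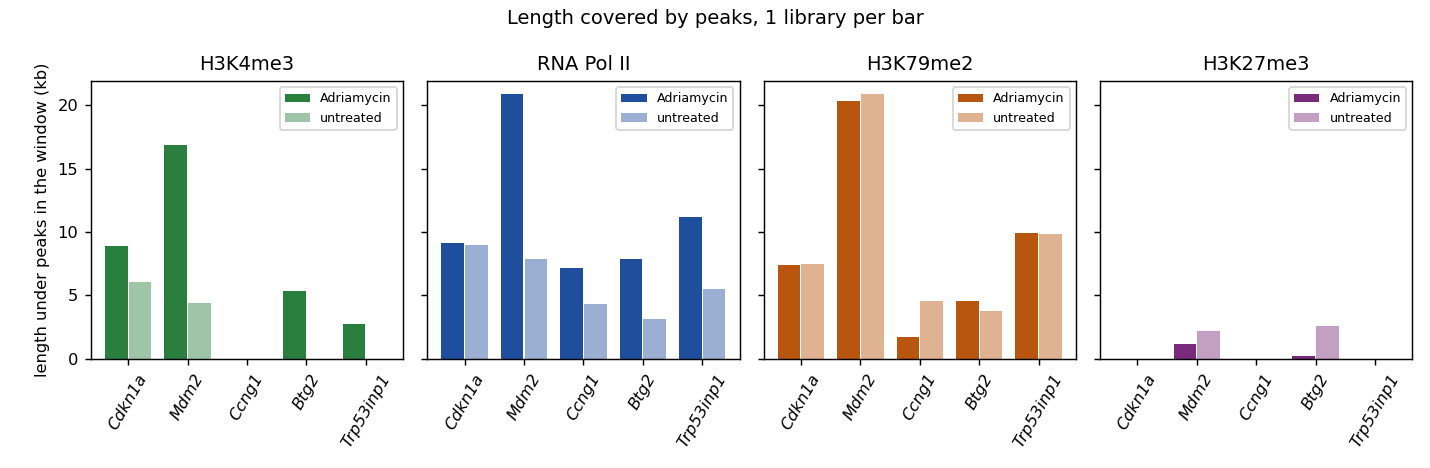
Length under peaks in each gene's window (kb) for 4 targets, with Adriamycin bars left of the paler untreated bars and 1 library per bar, so there are no error bars. Pol II bars are taller in the Adriamycin list at each gene, by 0.117 kb at Cdkn1a (a sign that turned without peaks scoring under 100) and 13.0 kb at Mdm2, and H3K79me2 bars are nearly level except at Ccng1.

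Set side by side, Pol II covered more of the window in the Adriamycin list at 5 of 5 genes as deposited, with log2 ratios (1 kb added to each length) of 1.31 at Mdm2, 1.09 at Btg2, 0.90 at Trp53inp1, 0.61 at Ccng1 and 0.02 at Cdkn1a, where the sign turned without peaks scoring under 100 and without flanks. A ratio of at least 2-fold was found at 2 of the 5. Among 16724 tiles of 30 kb over the whole genome with at least 1 kb of Pol II in either list, 4.45% were at least 2-fold higher in the Adriamycin list and 19.8% at least 2-fold lower, and the median log2 ratio was -0.37. The members' median was 0.90, and 0 of the 5 were 2-fold lower. Without flanks the ratio at Btg2 was 0.78, under 2-fold, and with a score of at least 100 or equal numbers of top-scoring peaks that at Trp53inp1 was 1.29, over it.

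For H3K4me3 the log2 ratio was 2.67 at Btg2, 1.89 at Trp53inp1, 1.72 at Mdm2 and 0.49 at Cdkn1a, with no peak at Ccng1 in either list. It was at least 2-fold higher at 3 of the 4 genes with a peak, against 1.92% of 17878 tiles, and 2-fold lower at 0, against 3.28%. The tiles' median was -0.06. Btg2 and Trp53inp1 had 0 kb in the untreated list, so their ratios depend on the added 1 kb. At Trp53inp1 the ratio was 0.64, under 2-fold, when peaks with a score under 100 were left out. Among 29710 H3K4me3 peaks paired 1 to 1 between the lists, 0.707% were at least 2 times as wide in the Adriamycin list. The Mdm2 promoter peak was 2.21 times as wide and the Cdkn1a peak 1.47 times.

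For H3K79me2 the log2 ratio was 0.23 at Btg2, 0.01 at Trp53inp1, -0.01 at Cdkn1a, -0.03 at Mdm2 and -1.06 at Ccng1. It was at least 2-fold higher at 0 of 5, against 2.46% of tiles, and at least 2-fold lower at 1 of 5, against 4.14%, and the tiles' median was -0.07. The 1 lower call, Ccng1, was lost with a score of at least 100 (-0.39) and without flanks (-0.29). At Btg2, 11.1% of tiles had a ratio at least as high. For H3K27me3, present at 2 genes, it was -0.55 at Mdm2 and -1.56 at Btg2. It was at least 2-fold higher at 0, against 1.22% of tiles, and lower at 1 (Btg2), against 12.7%. The tiles' median was -0.35, and a ratio at least as low was found in 33.1% of tiles for Mdm2 and 1.87% for Btg2. The Btg2 ratio rests on lengths clipped at the window's edge, which cut a peak in each list. The full width of that peak in the Adriamycin list was 0.451 times that in the untreated list. With a score of at least 100 the ratio was -1.68 at Mdm2 and -1.05 at Btg2. The share of tiles past 2-fold was not computed at that setting, so no count is read from it.

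**Figure D3:**
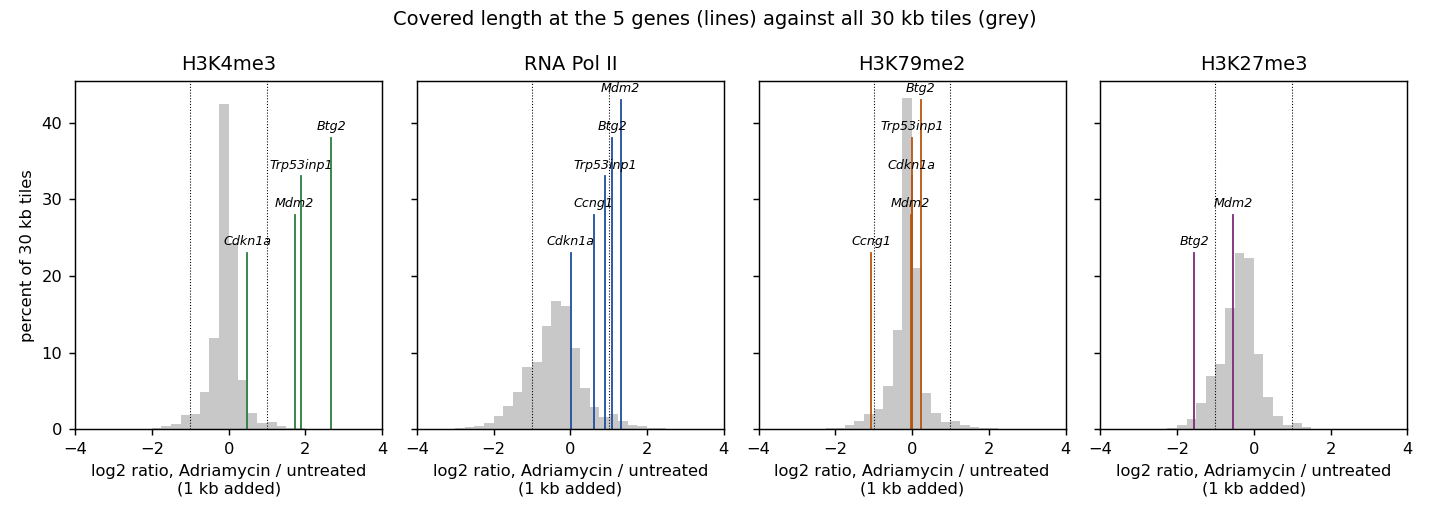
Covered length at each gene as a log2 ratio, Adriamycin over untreated (1 kb added) (coloured lines, whose heights only separate the names) against the percent of all 30 kb tiles (grey), with dotted lines at 2-fold. For H3K4me3, Btg2, Trp53inp1 and Mdm2 lie past 2-fold, where 1.92% of tiles do, while for H3K79me2 4 of the 5 genes lie between -0.03 and 0.23, beside a tiles' median of -0.07.

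Counted by peak, H3K4me3 had 13 peaks in the 5 windows in the Adriamycin list, 11 of them without a partner, against 15.8% of the whole list. The untreated list had 2, of which 0 lacked a partner, against 14.5% of that list. Of the 11, 7 lay at Mdm2. Merging peaks within 1 kb left 6 of 8 without a partner, and the whole-list share was not computed for merged peaks. Pol II had 35 peaks in the Adriamycin list, of which 12 lacked a partner (26.1% of the whole list), and 27 in the untreated list, of which 2 did (48.0% of that list). The 12 were 7 at Trp53inp1, 4 at Mdm2 and 1 at Ccng1. The members' share of untreated Pol II peaks without a partner was therefore well under that of the list, and their Adriamycin share nearer to it.

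H3K79me2 peaks without a partner were 2 of 16 in the Adriamycin list (18.0% of the whole list) and 4 of 19 in the untreated list (19.0%), close to the lists. H3K27me3 peaks without a partner were 0 of 3 in the Adriamycin list (27% of the whole list) and 2 of 4 in the untreated list (41.2%).

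**Figure D4:**
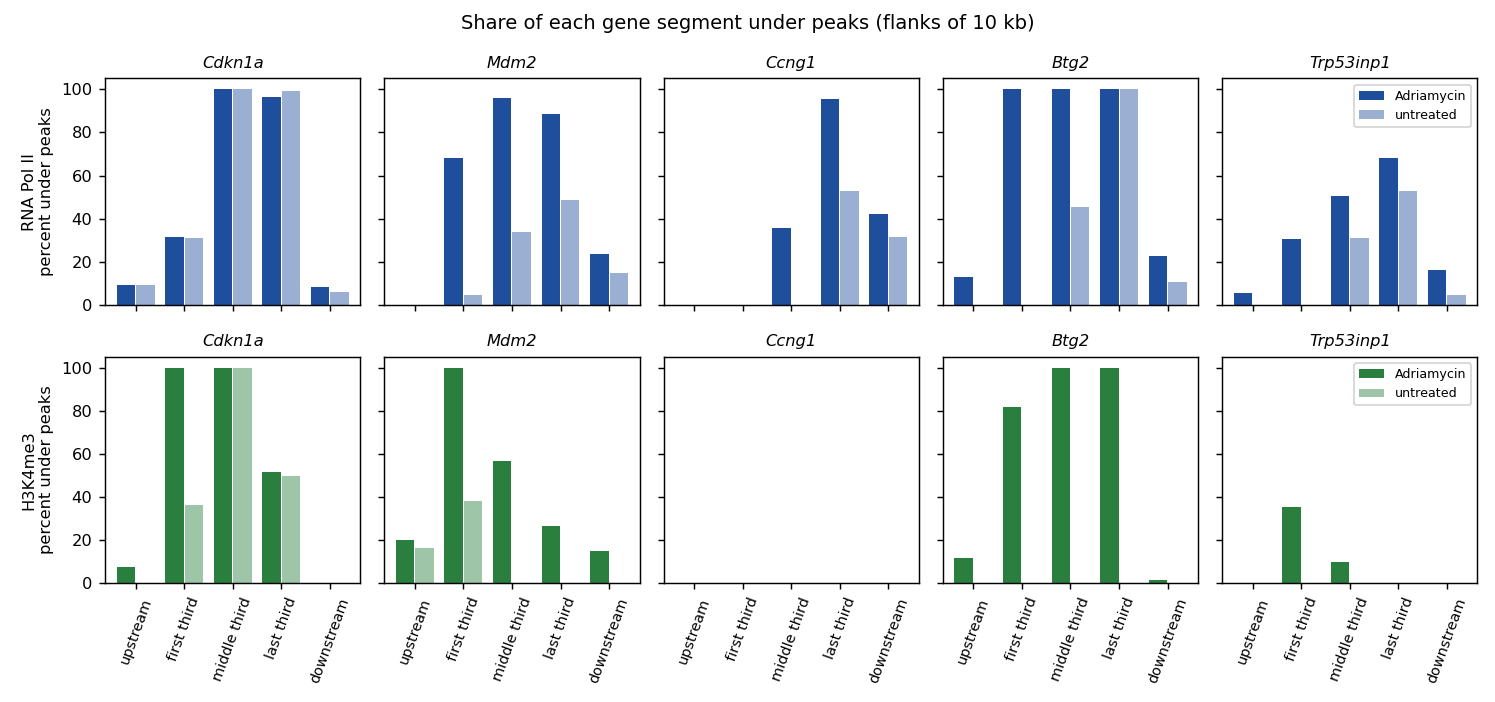
Percent of each segment under Pol II peaks (upper row) and H3K4me3 peaks (lower row) in the 10 kb upstream, in 3 equal parts of the gene and in the 10 kb downstream, with Adriamycin bars left of the paler untreated bars and 1 library per bar. The 5′ part holds more Pol II in the Adriamycin list at Mdm2 (68.1% against 4.55% untreated), Btg2 (100% against 0% untreated) and Trp53inp1 (30.7% against 0% untreated), and nearly the same at Cdkn1a (31.4% against 30.8% untreated).

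A Pol II peak lay over the start of the span at 1 of 5 genes in the Adriamycin list (Btg2) and at 0 in the untreated list. H3K4me3 covered the start at 2 genes in the Adriamycin list (Cdkn1a and Mdm2) and at 1 in the untreated list (Mdm2). H3K79me2 covered it at 0 genes in the Adriamycin list and at 1 in the untreated list (Mdm2, by 0.01 kb). Pol II lay over the 3′ end at 5 of 5 genes in the Adriamycin list and at 3 in the untreated list (Cdkn1a, Mdm2 and Btg2). The share of all genes with a peak over their start or end was not computed, because no mm9 annotation was used, so nothing is read from these counts. No list held a peak over the start of Ccng1 or Trp53inp1. Read coverage was not analysed here, so whether the peak caller left out signal at these starts was not tested. The same holds for H3K4me3 at Btg2 and Trp53inp1 in the untreated list. An absent peak is not an absent mark.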

How the data were processed

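ChIP-seq peak lists of 5 targets in Adriamycin-treated and untreated cells were used, 1 library each. Per the submitters' processing notes, CASAVA 1.8.2 and MACS 1.4.1 were named and the build was mm9. The deposited score of a peak, which MACS of this generation writes as 10 times the negative log10 of its p-value, was at least 50 in each list and was used to rank peaks within a list. For read depth, input libraries and duplicate handling, the sources used here give nothing. With 1 library per group no precision can be given.

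Peaks touching the 5 windows were kept, and covered lengths were clipped to the window. A peak had a partner where the other condition's list of that target held a peak sharing at least 1 bp. Lengths were compared as log2 ratios with 1 kb added, beside all 30 kb tiles holding at least 1 kb in either list. The tiles were a fixed grid over the genome, whereas the windows were placed on genes and differed in length. Overlap and tile steps were checked on simulated intervals. The gene spans came with the choice of genes, and their lengths differ from RefSeq (GRCm38.p6) by 3 to 162 bp. Strands came from RefSeq promoter windows, and for Trp53inp1 from general knowledge. No mm9 annotation was used here, so stem cell markers and other p53 pathway genes were not placed. All 5 genes are named, with peaks chosen by score, place over the start, or lack of a partner. The members and lists were chosen with earlier results of these data known. Alternatives covered the score minimum, list length, flanks, added length, overlap and merging. Python 3.11.15, numpy 2.4.6, pandas 2.3.3 and matplotlib 3.10.9 were used.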

Additional observations from a re-analysis of the deposited data

How the results depend on the processing

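No paired analysis was possible because each target had 1 library per condition. Read depth is unknown, so the lists' sensitivity limits every comparison. Log2 ratios of covered length over the 5 windows together are given as Adriamycin over untreated, and the cause of the shifts was not tested. For H3K4me3 the ratio was 1.61 as deposited, 1.38 with a score of at least 100, 1.50 with top-scoring peaks in equal numbers, 1.58 without flanks and 1.68 with 0.2 kb added. For Pol II it was 0.89, and 1.14, 1.14, 0.90 and 0.91 under the same settings in that order. For H3K79me2 it was -0.08 as deposited and turned to 0.0068 with a score of at least 100, was -0.10 with equal numbers and -0.0188 without flanks. For H3K27me3 it was -1.26, then -1.95 with a score of at least 100 and -1.63 with 0.2 kb added. For hnRNP L it was -0.54, and -1.71 with 0.2 kb added. At Cdkn1a the Pol II ratio of 0.02 turned to -0.12 with a score of at least 100 and to -0.0113 without flanks.

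Adriamycin H3K4me3 peaks without a partner were 11 of 13 as deposited and 7 of 9 with a score of at least 100. They were 9 of 11 with equal numbers, 6 of 8 with peaks merged and 8 of 10 without flanks. Adriamycin Pol II peaks without a partner were 12 of 35 as deposited. Under the same settings in that order they were 7 of 26, 16 of 35, 3 of 10 and 10 of 30. Untreated Pol II peaks without one were 2 of 27. They were 0 of 15 with a score of at least 100 and 0 of 20 with equal numbers. With merging they were 0 of 11, and without flanks 1 of 21. For H3K79me2 the Adriamycin count was 2 of 16. It was 0 of 13 with a score of at least 100 and 1 of 15 with equal numbers. With merging it was 1 of 6, and without flanks 0 of 14. The untreated H3K79me2 count was 4 of 19, and 2 of 14 with a score of at least 100. It was 0 of 6 with merging and 1 of 16 without flanks. The untreated H3K27me3 count was 2 of 4, and 1 of 3 with a score of at least 100 or merging and 0 without flanks. The untreated hnRNP L count was 1 of 1, and 0 with a score of at least 100, equal numbers or no flanks. Asking for 50% of the shorter peak to be shared changed none of these counts. The whole-list share was computed for the lists as deposited only, so the counts are not compared between settings. No H3K27me3 ratio could be formed without flanks, and no hnRNP L ratio with a score of at least 100, with equal numbers or without flanks, because no peak was left in either list.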
